A study of Camelus bactrianus with 10 samples.

Results

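The miR-320 family was followed in small RNA sequenced from the plasma exosomes of Bactrian camels. Exosomes are membrane vesicles that circulate in blood and carry RNA of the cells they left. Every row of the deposited table whose name, without the species prefix and the end notes, was miR-320 with a letter from a to e or with no letter was kept. That gave 13 of the 2581 rows of the table, 969 of which carried a miRNA name. The names were 2 rows of miR-320a, 1 of miR-320b, 3 of miR-320c and 7 of miR-320d, with 0 of miR-320e and 0 without a letter. The rows were chosen by name alone, but the family itself was selected on normalized counts of thin against normal camels, since the row hsa-miR-320c_R-1 was higher in thin camels in an earlier comparison of the same libraries. The values of thin against normal camels are therefore a description here and carry no p.

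The animals were Camelus bactrianus, 5 labelled thin, of 402.6 to 421.2 kg, and 5 labelled normal, of 452.3 to 492.8 kg. No treatment, strain, genotype or age was given for either group, so weight is the one difference the labels state. Each library is 1 animal. Exosomes came from ultracentrifuged plasma in both groups, and the cells that released them are unknown.

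MiR-320 is a conserved microRNA, a short RNA that guides Argonaute proteins to messenger RNAs that pair with its seed, bases 2 to 8. Its hairpin is known in mammals for being made without Drosha: it is transcribed directly as a short capped hairpin, is exported by exportin-1 and is cut by Dicer alone, which leaves the 3p strand as the main product. Red blood cells, platelets and other blood cells are known to hold miR-320a. The human family members named a to d share the start of the molecule and part at the right end, so that reads cut short at that end can belong to several of them.

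Rows that carry much of the value beside miR-320a, and some that differ at the right end, are given 5′ to 3′ with the seed in capitals. They are shown because their letters decide how far the names can be told apart. The rows hsa-miR-320d_1ss18GA, hsa-miR-320d_R+1_1ss18GA and hsa-miR-320d_1ss19AT, not shown, also differ at the right end. The rows shown read as follows in the deposited table.
hsa-miR-320c_R-1: aAAAGCTGggttgagaggg
hsa-miR-320d_R-1: aAAAGCTGggttgagagg
hsa-miR-320d: aAAAGCTGggttgagagga
hsa-miR-320c_L-1R+1_1ss20TA: aAAGCTGGgttgagagggaa
The 4 rows with the substitution G9T follow, with the substituted base in capitals and positions numbered from 1 at the left end. They are shown because their values, low in some of them, lay mostly in particular libraries.
hsa-miR-320b_R-2_1ss9GT: aaaagctgTgttgagagggc
hsa-miR-320c_R-1_1ss9GT: aaaagctgTgttgagaggg
hsa-miR-320d_R-1_1ss9GT: aaaagctgTgttgagagg
hsa-miR-320d_1ss9GT: aaaagctgTgttgagagga
In the names, L and R with a number tell how many bases a row is longer or shorter at its left or right end, and ss marks a substitution with its position and both bases.

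Rows ranged from 18 to 22 bases. The seed AAAGCTG stood in 11 of the 13, and the remaining 2, which start 1 base later, had AAGCTGG instead. Base 9, the position of G9T, lies directly beside the seed and leaves it as it is. The only row longer than 20 bases was bta-miR-320a, with 22. The rows hsa-miR-320c_R-1, hsa-miR-320d_R-1 and hsa-miR-320a-3p_L-1R-2 were exact stretches of that 22-base sequence, so 3 rows with 3 different names held letters that miR-320a holds too. Of the 4 rows with G9T, 3 became stretches of it once the T was read as G. The values of these rows are therefore values of a sequence, and their origin from miR-320a, b, c or d was not told apart by the letters. The row hsa-miR-320d ends in a base that miR-320a does not have there.

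Values are the authors' normalized counts, and the sources used here do not say how each library's factor was made. Libraries summed to 532999 to 757352 normalized counts. Low values lay on steps, 1 step being the worth of 1 read, which put the reads in the table at an estimated 505263 to 4474902 per library. Normal 4, normal 5 and thin 4 were the deepest, with 4312774, 4474902 and 2938274. Nearly all positive values were worth 5 reads or more, so that a listed 0 can hide up to a few reads.

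The bulk of the family was the 22-base miR-320a, a main miR-320 of mammalian blood. It held 7451, 4456, 5731, 4540 and 3598 normalized counts in normal 1 to 5, and 8134, 6091, 5209, 8022 and 6839 in thin 1 to 5. The groups overlapped: normal 1 lay above 3 thin camels, and thin 3 lay below 2 normal ones. Normal camels averaged 5155 ± 1491 and thin camels 6859 ± 1254 (SD, n = 5 each), and the log2 fold change of thin over normal was 0.44 ± 0.23 (SE) on the log2(value + 1) scale. It did not pass the test described below. Leaving out normal 4 and normal 5 made this 0.23 ± 0.27. MiR-320a made up 97.5% of the estimated reads of the whole family.

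Summed over its 13 rows the family held 3707 to 7522 normalized counts in the normal group and 5381 to 8694 in the thin group. This was 0.50% to 1.15% of a normal library and 0.887% to 1.25% of a thin one. The means were 5230 ± 1482 and 7141 ± 1349 (SD, n = 5 each), and the groups overlapped. The log2 fold change of the sum was 0.47 ± 0.23 (SE), and 0.28 ± 0.27 without normal 4 and normal 5. As miR-320a fills the sum, the sum says little of the other 12 rows, which held 0.713% to 6.44% of it.

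**Figure D1:**
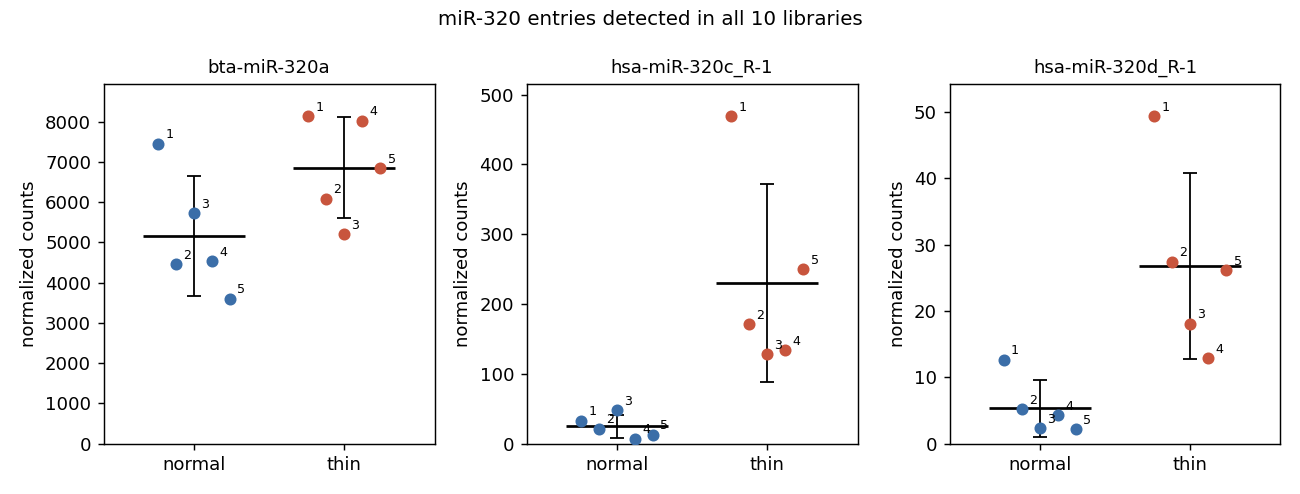
Normalized counts of the 3 miR-320 rows that were above 0 in all 10 libraries, in normal (blue) and thin (red) camels, with the replicate number beside each point, the mean as a line and the SD as a bar (n = 5 each). The groups overlap for bta-miR-320a, while every thin library lies above every normal one for hsa-miR-320c_R-1 and, by a small margin, for hsa-miR-320d_R-1.

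The 19-base row hsa-miR-320c_R-1 was the second most abundant of the family. It held 32.9, 21.6, 48.3, 7.10 and 13.1 normalized counts in normal 1 to 5, and 469, 171, 128, 134 and 249.9 in thin 1 to 5. The lowest thin camel, thin 3, lay well above the highest normal one, normal 3. The means were 24.6 ± 16.4 and 230.4 ± 142 (SD, n = 5 each), a ratio of means of 9.37, and the log2 fold change was 3.27 ± 0.57 (SE). The estimated reads behind these values were 25 to 102 in normal and 162 to 582 in thin libraries, so the lowest counts were small but not at the floor. Without normal 4 and normal 5, which held the lowest values, the log2 fold change was 2.60 ± 0.52, and the ratio of means was 6.72.

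The 18-base row hsa-miR-320d_R-1, 1 base shorter still, held 12.7, 5.19, 2.37, 4.29 and 2.16 normalized counts in normal 1 to 5. In thin 1 to 5 it held 49.3, 27.4, 18.1, 12.9 and 26.2. Every thin library lay above every normal one, but the margin between normal 1 and thin 4 was small, and 5 to 26 reads stood behind each normal value. The means were 5.33 ± 4.29 and 26.8 ± 14.0 (SD, n = 5 each), with a log2 fold change of 2.22 ± 0.70 (SE). It did not pass the test. It entered the test with 6 libraries at 10 or more, all 5 thin ones among them, so the filter let it in through the group in which it was higher. The log2 fold change was 1.23 with a pseudocount of 10 and 3.91 with values under 5 reads of the shallowest library set to 0, and its size is uncertain to that extent. Over the 10 libraries its log2 values and those of hsa-miR-320c_R-1 had a Pearson correlation of 0.87, given as a description, since both share library, depth and group.

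The comparison ran over the 468 rows of the table at 10 or more in at least 5 libraries, with limma on log2(value + 1). Of these, 9 passed a Benjamini-Hochberg adjusted p of 0.05, which is 1.92%. Higher in thin camels were 6, or 1.28%. Of the family 3 rows were tested, and 1 of them, hsa-miR-320c_R-1, passed, higher in thin camels. Rows in which every thin library lay above every normal one numbered 10 of 468, or 2.14%, and 2 of the 3 tested family rows were among them. The family was picked with this contrast known, so nothing is read from these counts. Over all tested rows the median of the log2 fold changes was -0.01, and 0.17 with equal library totals. On that second scale hsa-miR-320c_R-1, hsa-miR-320d_R-1 and bta-miR-320a were at 3.45, 2.37 and 0.62.

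A ratio within a library does not depend on the library's factor. For each 1000 normalized counts of bta-miR-320a there were 4.42, 4.85, 8.42, 1.56 and 3.64 of hsa-miR-320c_R-1 in normal 1 to 5, and 57.6, 28.1, 24.6, 16.7 and 36.5 in thin 1 to 5. All thin libraries lay above all normal ones, with means of 32.7 ± 15.6 and 4.58 ± 2.49 (SD, n = 5 each). For hsa-miR-320d_R-1 the ratio per 1000 was 0.413 to 1.70 in normal and 1.61 to 6.07 in thin camels. Here the groups met, as thin 4 lay below normal 1. The share of the summed family value under the letter c was 0.479% to 0.988% in normal and 1.66% to 5.46% in thin libraries, and under the letter d 0.0981% to 0.327% and 0.268% to 0.984%. Under the letter a it was 97.0% to 99.4% and 93.6% to 98.1%. With only rows with no substitution note, the letter c held 0.156% to 0.834% in normal and 1.64% to 5.41% in thin libraries. The letter d then held 0.0943% to 0.168% and 0.192% to 0.806%, and the letter a 99.1% to 99.7% and 93.8% to 98.2%. For the letters a and d the groups overlapped with all rows and did not overlap without substitution rows.

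**Figure D2:**
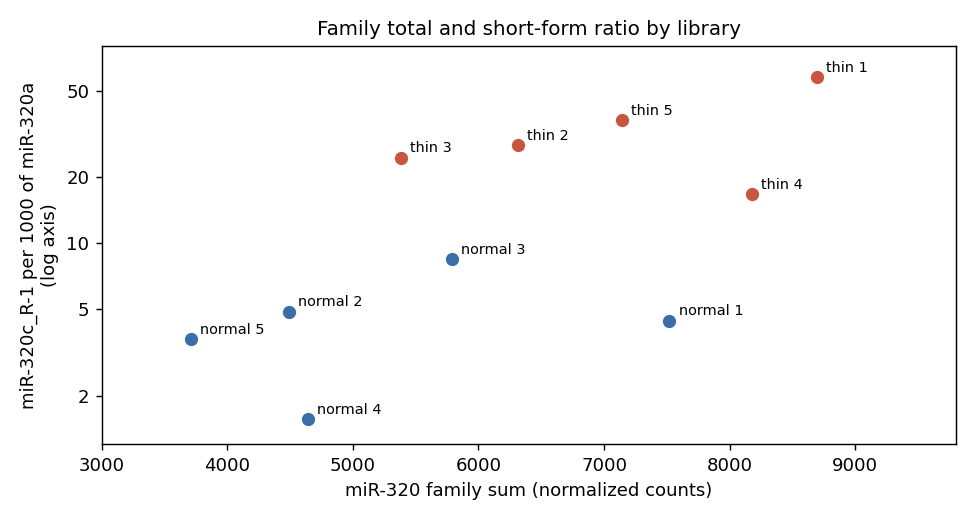
Normalized counts of hsa-miR-320c_R-1 per 1000 of bta-miR-320a (vertical, log axis) against the summed miR-320 family (horizontal, normalized counts), 1 point per library, normal in blue and thin in red. Normal 1 has a family sum of 7522, above that of 3 thin libraries, and yet its ratio of 4.42 lies below all thin ones, the lowest of which is thin 4 at 16.7.

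The other 10 rows did not pass the filter and were not tested. Of these, 6 were below 10 in every library. Rows above 0 in both groups numbered 4, in thin camels only 2, and in normal camels only 4. The row hsa-miR-320a-3p_L-1R-2, which has lost the first base and so carries the other seed, held 21.5 and 6.63 in normal 1 and 3, 23.2 and 14.7 in thin 2 and 3, and 0 in the other 6 libraries. Both groups thus had libraries with it and without it. The 19-base hsa-miR-320d differs from miR-320a in its last base only, and its origin was not tested. The row held 3.31 and 1.33 in normal 3 and 5. In thin 1, 3, 4 and 5 it held 20.6, 3.34, 2.77 and 6.35. It was at 0 in the other 4 libraries, and thin 1 alone reached 10. The row hsa-miR-320c_L-1R+1_1ss20TA held 3.16 in normal 1 and 5.76, 1.38 and 9.52 in thin 1, 4 and 5.

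Rows named miR-320d with a substitution note near the right end were few and low. Their letters do not tell whether the reads came from miR-320d. With G18A, the 19-base hsa-miR-320d_1ss18GA held 7.40, 6.69, 1.61 and 5.55 in thin 1, 3, 4 and 5 and was listed at 0 in all normal libraries. The longer hsa-miR-320d_R+1_1ss18GA held 8.22 and 4.61 in thin 1 and 4. No fold is given for either, as 7 to 20 reads at most stood behind each value and the normal values are at the floor. The row hsa-miR-320d_1ss19AT was above 0 in normal 2 alone, at 5.19. Substitutions other than G9T summed to 0 to 5.19 in normal and 0 to 21.4 in thin libraries, so the groups overlapped.

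**Figure D3:**
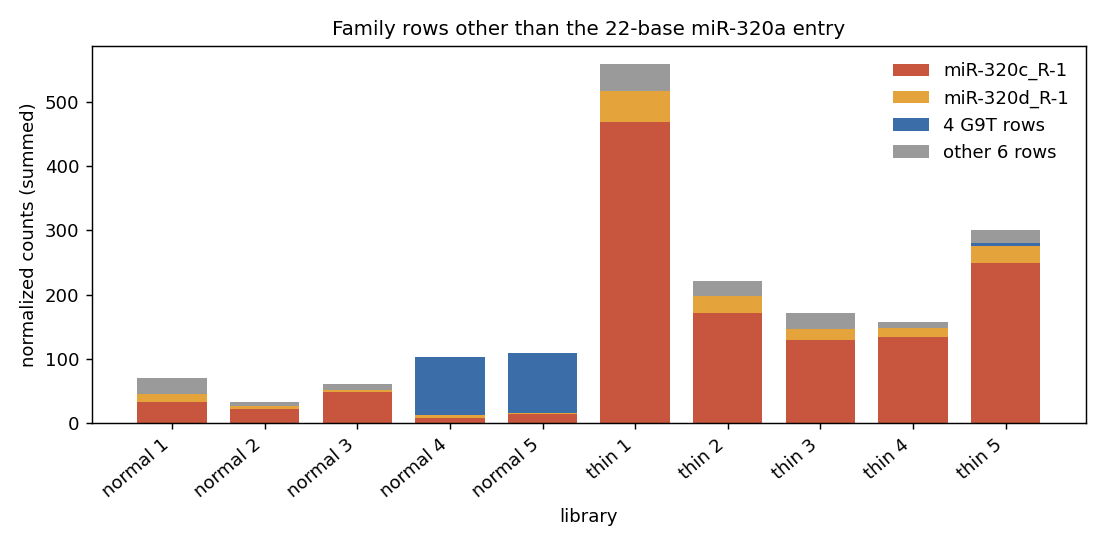
Summed normalized counts of the 12 family rows other than the 22-base miR-320a, stacked by library: hsa-miR-320c_R-1, hsa-miR-320d_R-1, the 4 rows with G9T and the other 6. The sums are 32 to 109 in normal and 157 to 560 in thin libraries, and G9T rows fill most of the bars of normal 4 and normal 5.

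The G9T rows were highest in 2 libraries of the normal group. The row hsa-miR-320b_R-2_1ss9GT, the only one named miR-320b, held 64.1 in normal 4 and 60.7 in normal 5 and was at 0 in the other 8 libraries. The row hsa-miR-320c_R-1_1ss9GT held 19.5 and 23.5 in these libraries and 3.97 in thin 5. The row hsa-miR-320d_R-1_1ss9GT held 7.10 and 4.64 there, and hsa-miR-320d_1ss9GT 3.98 in normal 5 alone. All 4 summed to 90.6 and 92.9 in normal 4 and 5, or 1.95% and 2.50% of the family, against 0 in 7 libraries and 0.0556% of the family in thin 5. Normal 4 and normal 5 were also the deepest libraries, and thin 4, the next deepest, was at 0; the part of depth in these values was not tested.

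In the short rows T outweighed G at base 9 in these libraries. Of the value of hsa-miR-320c_R-1 and its G9T row together, 73.3% in normal 4 and 64.3% in normal 5 had T, against 1.56% in thin 5 and 0% elsewhere. For hsa-miR-320d_R-1 the shares were 62.3% and 68.3%, and 0% in the other 8. Only 6 and 5 estimated reads of hsa-miR-320d_R-1 stood in normal 2 and normal 3, so 0% there can hide reads with T. A row with the 22-base miR-320a sequence and T at base 9 was not among the rows analysed here, although 27504 and 21698 estimated reads of bta-miR-320a stood in these libraries. Likewise 0 rows had the sequence of hsa-miR-320b_R-2 with G at base 9. As 2 lines of the table were empty, rows of either kind may be among those not analysed here.

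The same libraries stood out in other miRNAs. Outside the family 42 rows carried G9T, each with T at base 9 of the read, and in 26 of them, or 61.9%, normal 4 and normal 5 both lay above the other 8 libraries. This held for 3 of the 4 family rows. It held for 8.77% of the 285 rows with other substitutions and for 16.3% of the 638 miRNA rows with no substitution note. The 61.9% is a share of rows, not of separate miRNAs. Several of the 26 rows share a name (miR-1323, miR-525-5p, miR-503), and oan-mir-142-p5_1ss9GT and oan-mir-142-p3_1ss9GT held equal values. Others carry neighbouring names from miR-516a to miR-526b, and several of these rows were at 0 in the other 8 libraries. G9T rows above 0 outside the family numbered 39 in normal 4 and 33 in normal 5, and 2 to 9 in the other libraries, of which thin 4 had 9. They held 0.691% and 0.869% of the value of all other miRNA rows in these libraries and 0.0208% to 0.0510% in the other 8. Without miR-142, of which 1 row held 2441 and 3927 normalized counts there, the shares were 0.343% and 0.333%, and 0.0141% to 0.0424% in the other 8. Other substitutions held 2.67% and 2.53% there, inside the range of the other 8 libraries, 2.30% to 3.28%. Over the 12 G9T rows outside the family whose sequence with G was also a row, T made up 61.5% and 60.3% in normal 4 and 5 and 16.0% to 24.7% elsewhere. Without miR-146a-5p, which held T in all libraries, the 11 left had 60.8% and 59.2%, against 0% to 17.3%. G9T was the most frequent single substitution, with 46 rows, the next being C22T with 9.

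**Figure D4:**
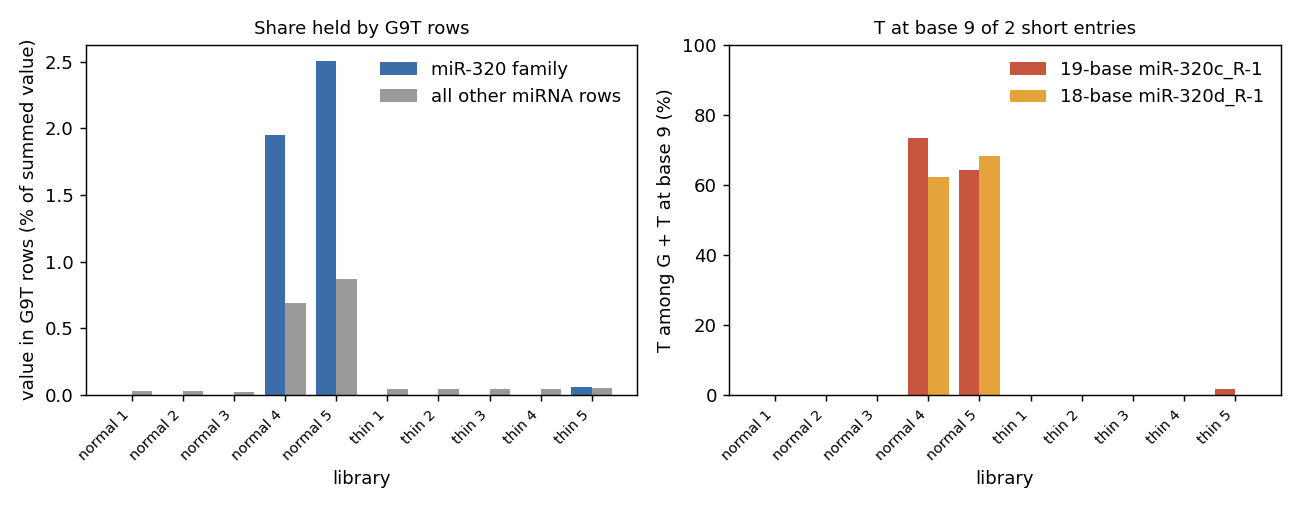
Left, the percent of the summed value held by rows with G9T, in the miR-320 family (blue) and in all other miRNA rows (grey), by library. Right, the percent of T among G and T at base 9 in the 19-base hsa-miR-320c_R-1 and the 18-base hsa-miR-320d_R-1. Normal 4 and normal 5 stand apart in both, with 1.95% and 2.50% of the family value in G9T rows.

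G9T bears on the comparison of thin with normal camels, since a read with T is not counted in the row with G. Each G9T row was therefore added to its row with G over the whole table, where 15 rows had such a partner. The row hsa-miR-320b_R-2_1ss9GT, at 64.1 in normal 4 and 60.7 in normal 5, had none and was not added. After this hsa-miR-320c_R-1 had a log2 fold change of 2.63 ± 0.44 (SE) in place of 3.27 ± 0.57. That of hsa-miR-320d_R-1 was 1.71 ± 0.67 in place of 2.22 ± 0.70. Per 1000 of bta-miR-320a, hsa-miR-320c_R-1 with its G9T row stood at 5.85 and 10.2 in normal 4 and 5, beside 4.42 to 8.42 in normal 1 to 3 and 16.7 to 57.6 in thin camels. The groups did not overlap on this measure either. How far the G9T rows of normal 4 and normal 5 go with other values of these libraries was not tested.

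**Figure D5:**
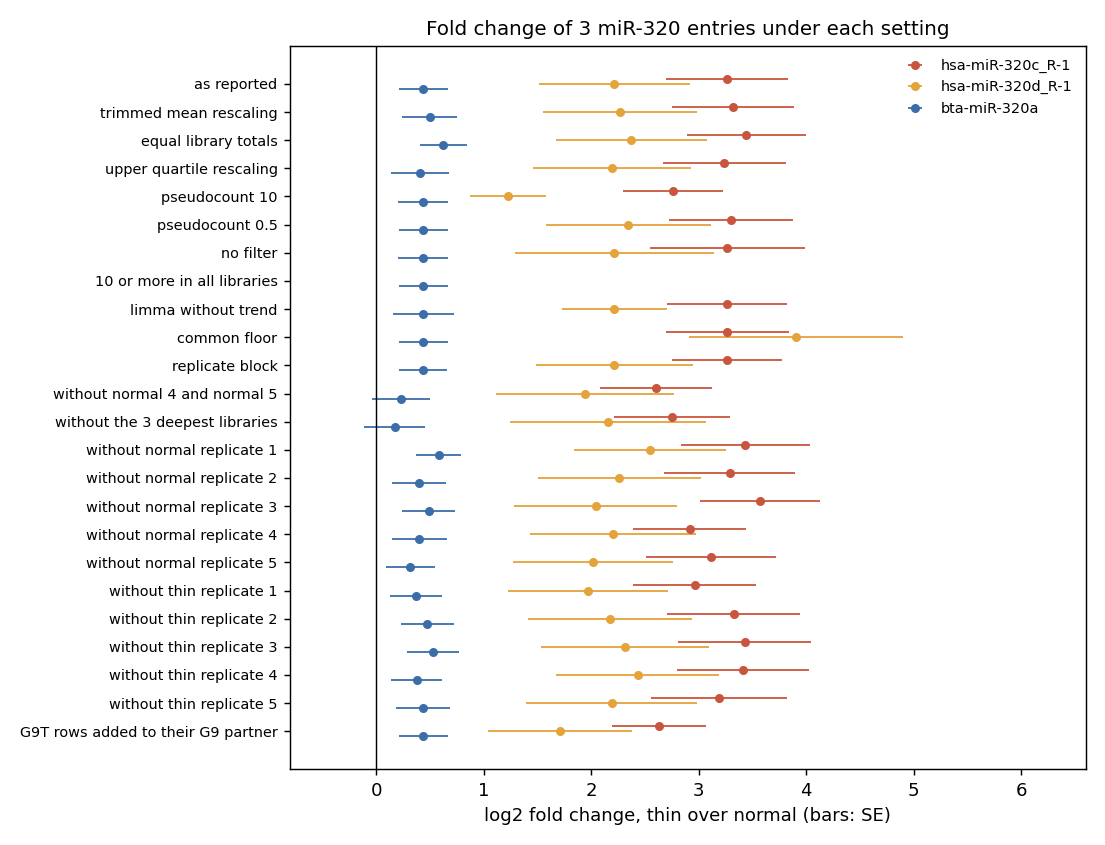
Log2 fold change of thin over normal with its SE (bars) for the 3 tested family rows under each processing setting. The row hsa-miR-320c_R-1 lies between 2.60 and 3.57 in every setting that tested it and bta-miR-320a between 0.17 and 0.62, while hsa-miR-320d_R-1 runs from 1.23 to 3.91.

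Among rows outside the family, those that ranked the 10 libraries most like the family sum were hsa-miR-193a-5p (Spearman rho 0.89), the miR-345-3p row hsa-miR-345-3p_L-1R+1_1ss10GT (0.87), hsa-miR-221-3p, hsa-miR-365b-3p and hsa-miR-345-5p_R-1_1ss18GT (0.82 each). Those most like hsa-miR-320c_R-1 were hsa-miR-19b-3p (0.89), hsa-miR-21-5p (0.87), hsa-miR-145-3p_L-2R+1 (0.82), hsa-miR-1246_L+1R+2 (0.82) and cgr-miR-142-3p_L+1 (0.81). The median over all candidates was -0.07 and -0.05. These are descriptions over 10 libraries that share their 2 groups.

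Of 11 other miRNAs that are known in mammals for being made without Drosha, as mirtrons or from capped hairpins, 3 had a row and 1 could be tested. That was miR-484, which like miR-320 comes from a capped transcript. Its mean was 1279 ± 305 normalized counts for normal and 989.8 ± 139 for thin camels (SD, n = 5 each), with a log2 fold change of -0.34 ± 0.23 (SE), and did not pass. Rows of miR-877 and miR-1224, each with a substitution note, averaged 0.792 and 0 in normal and 1.11 and 2.11 in thin camels. These means rest on single libraries: miR-877 held 3.96 in normal 4 and 5.53 in thin 4, and miR-1224 10.5 in thin 2. Both rows were at 0 in all other libraries. Neither was tested.

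Of the markers of cells that may feed exosomes, 1 tested row passed, bta-miR-486_R+1, against 1.92% of all tested rows. The rows tested were 4 for red blood cells, 6 for platelets, 16 for leukocytes, 4 for liver and 3 for muscle. Nothing is read from a count of 1 among so few. The 4 red blood cell miRNAs, which include miR-451a and miR-486, made up 14.7% to 28.5% of normal and 7.73% to 14.9% of thin libraries, so the groups overlapped. Their 4 tested rows had a median log2 fold change of -1.10, beside -0.01 over all tested rows. The 4 platelet miRNAs made up 4.52% to 7.09% and 5.57% to 9.77%, and 0 of 6 tested rows passed. The 5 leukocyte miRNAs made up 2.50% to 4.17% and 1.81% to 6.10%, the 3 liver miRNAs 3.14% to 13.3% and 1.36% to 9.78%, and the 3 muscle miRNAs 0.00394% to 0.0300% and 0.0136% to 0.104%, with 0 rows passing in each. Fewer vesicles from a cell type and less RNA per vesicle cannot be told apart in these values. The part of these markers in the values of the miR-320 rows was not tested.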

How the data were processed

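Small RNA of plasma exosomes was sequenced from 10 camels, 5 per group. Per the labels' protocols, RNA was extracted with a mirVana kit, libraries were made with a TruSeq small RNA kit, and the program ACGT101-miR took out dimers of adapters, junk, reads of low complexity, repeats and known RNA classes such as tRNA and snRNA. The same protocols speak of 9 libraries while the labels name 10 samples. For the mapping reference, miRBase version and genome build, not given in the sources used here, nothing is assumed. The deposited values are a signal, called normalized counts per the file headers, with 1 column per animal. The table held 2581 rows and 2 empty lines.

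The step of each library was estimated from its low values (98.8% to 99.9% of values up to 200 steps were whole within 0.02 of a step). The estimated reads served to describe depth only, and no count test was run on them. Intervals that need read counts were not computed.

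Rows at 10 or more in at least 5 libraries were fitted with limma 3.58.1 with a mean trend in R 4.3.3 on log2(value + 1), with group as the only term, after a test on simulated data. Other steps used Python 3.11.15, numpy 2.4.6, pandas 2.3.3 and matplotlib 3.10.9. Members, lists and settings were chosen with earlier results of these data known. All 13 family rows are given: those tested and those at 10 or more in any library per library, and most others too. Rows most alike were the 5 highest Spearman correlations among tested rows. Settings tried were other scalings, pseudocounts, filters, no trend, a common floor, a replicate block and libraries left out.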

Additional observations from a re-analysis of the deposited data

Results flagged for a closer look

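In normal camels, hsa-miR-320d_R-1 stood at 12.7 normalized counts in normal 1, apart from the other 4 normal libraries, at 2.16 to 5.19. The gap was 0.711 of the range, only just past the cut of 0.71. Of 22 groups of 5 checked in this way for the family's rows and shares, 1 was marked, and chance marks about 1 in 20.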

How the results depend on the processing

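In no setting did the family sum or a tested family row change its direction. The family sum kept a log2 fold change of 0.22 to 0.66, bta-miR-320a 0.17 to 0.62 and hsa-miR-320c_R-1 2.60 to 3.57. The row hsa-miR-320c_R-1 passed in all settings that tested it. It was the 1 family row called, except where 10 or more was asked for in all libraries. That setting left bta-miR-320a alone in the test and 0 family rows called. The family was picked because hsa-miR-320c_R-1 was higher in thin camels in these same libraries. Nothing is therefore read from its passing in these settings. Leaving out each library gave 0.36 to 0.61 for the sum and 1 family row called in every case. Against 9 rows called over the table there were 15 with no filter, 4 without the trend, 3 without normal 4 and normal 5 and 5 without the 3 deepest libraries. Leaving out single libraries gave 6 to 14, the highest without thin 1. The normal share under the letter d fell from 0.214% to 0.115% with only rows with no substitution note. The share of the family in substitution rows was 0.923% in normal and 0.146% in thin camels, and 0.0526% in normal without normal 4 and normal 5, so that the order of the groups turned. With the replicate block 9 rows were called, 1 of them in the family. The equal numbers are not known to pair animals: deviations of same-numbered libraries correlated from -0.20 to 0.52, and 2 of 5 matched best with their own number. The cause of these differences was not tested. Values of 2 to 30 normalized counts rest on few reads in most libraries, which limits hsa-miR-320d_R-1, the normal values of hsa-miR-320c_R-1 and most untested rows.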
